A study of Mus musculus with 16 samples.

Results

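The comparison described here set dorsal root ganglion cultures collected 12 h after axotomy, the cutting of their axons, against uninjured cultures. It used 5 arrays at 12 h and 5 uninjured arrays, chosen by their titles, which is 10 of the 16 in the series. Ganglia were taken at embryonic day 13 from CD-1 mice and their cells plated as spots. Every culture, uninjured ones included, was given a lentivirus on day 4. The lentivirus carried a MISSION control short hairpin RNA (shRNA; called control), MISSION shRNAs against HIF-1α (called knockdown), or human HIF-1α in the FUGW vector (called overexpression). On day 7 the cultures were cut with a blade and left for 3 h or 12 h, or were collected uncut. The 12 h arrays were 2 control, 2 knockdown and 1 overexpression, and so were the uninjured arrays. The difference, 12 h minus uninjured, was taken within each of the 3 constructs and averaged, so that each construct weighed the same. Illumina Mouse Ref-8 v2.0 BeadChips were used, and the labels do not state whether 2 arrays of a group stem from different cultures or animals. If they do not, the p-values cover technical spread alone. These are bulk cultures, so fewer cells of a type and less RNA per cell cannot be told apart.

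Cutting an axon sets off a transcriptional response in the neuron's cell body. In sensory neurons it is known for the transcription factors Atf3 and Jun, which are low in intact adult ganglia and induced by nerve injury. A second programme, the integrated stress response, runs through the translation factor eIF2α and the transcription factor ATF4, which activates Ddit3 (CHOP), Chac1 and genes of amino acid supply. Kinases of the stressed axon, among them DLK, feed both programmes.

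Of the 37 genes that rose, 31 had a promoter window in the RefSeq table of mouse assembly GRCm38.p6, and 4 of the 31 held the letters TTGCATC, the core of the element bound by ATF4 with its partners, within 250 bases before the gene start. That is 12.9%, against 2.42% of the 8517 tested genes with a window and 1 of 19 genes that fell (5.26%; Olfml2b). The 4 genes were Nupr1, Atf3, Chac1 and Slc7a11. Ddit3 and Ppp1r15a, which also rose, held no TTGCATC in their windows. The windows shown are those of Atf3, Chac1 and Nupr1, which are among the 12 largest rises. Capitals mark the match, and each sequence ends at the base before the gene start. The motif and the genes shown were chosen after values of these data were known.
Atf3, chr1:191183334-191183583, minus strand: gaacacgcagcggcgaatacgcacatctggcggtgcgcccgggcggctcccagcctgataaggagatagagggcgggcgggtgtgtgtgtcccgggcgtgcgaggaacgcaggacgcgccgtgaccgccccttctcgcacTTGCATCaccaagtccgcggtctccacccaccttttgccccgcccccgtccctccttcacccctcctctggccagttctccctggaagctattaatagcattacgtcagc
Chac1, chr2:119350992-119351241, plus strand: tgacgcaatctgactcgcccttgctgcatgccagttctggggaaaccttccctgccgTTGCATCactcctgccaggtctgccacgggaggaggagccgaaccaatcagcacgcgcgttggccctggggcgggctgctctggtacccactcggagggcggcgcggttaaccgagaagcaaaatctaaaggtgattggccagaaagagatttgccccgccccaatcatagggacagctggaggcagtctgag
Nupr1, chr7:126625471-126625720, minus strand: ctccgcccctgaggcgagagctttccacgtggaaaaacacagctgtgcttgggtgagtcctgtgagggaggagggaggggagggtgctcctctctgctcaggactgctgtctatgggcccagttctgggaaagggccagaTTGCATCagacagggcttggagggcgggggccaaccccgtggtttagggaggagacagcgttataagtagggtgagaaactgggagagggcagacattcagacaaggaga
The match begins 110 bases before the start in Atf3, 193 in Chac1 and 110 in Nupr1. Both strands were searched. The AP-1 letters TGACTCA stood in 3 of the 31 windows of genes that rose (9.68%; Ddit3, Htatip2 and Arl14ep), against 4.24% of all windows. The CRE letters TGACGTC stood in 1 of the 31 (3.23%; Ppp1r15a), against 5.15% of all. The E-box CACGTG stood in 5 of the 31 (16.1%), against 9.79%. The HIF core ACGTG, which lies within that E-box, stood in 8 of the 31 (25.8%), against 24.5% of all windows. Of the 19 windows of genes that fell, 1 held the HIF core (5.26%) and 0 held the AP-1, CRE or E-box letters. A match is a description of letters and not of binding.

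Of 11151 genes tested, 60 differed between 12 h and uninjured at an adjusted p under 0.05 (0.538%), 37 of them higher (0.332%) and 23 lower (0.206%). At an unadjusted p under 0.05 there were 1385 genes (12.4%). The differences were small. They are given as log2 differences of intensities to which 50 had been added, so dim genes appear to change less than they did. The largest rise was 0.85 and the largest fall -1.02, and 19 of the 60 reached 0.5 in size, against a median standard error (SE) of 0.0857 and a median difference of 0.0032 over all genes. All 60 had the same sign in the 3 constructs, against 31.5% of all genes. The 12 h arrays did not overlap the uninjured arrays in any construct for 31 of the 37 higher and 20 of the 23 lower genes, against 3.54% and 3.27% of all genes. The counts of sign and of overlap rest on the arrays that made the calls, so they are no separate support for them. In overexpression the overlap counts compare 1 array with 1. Leaving out either overexpression array left the average of control and knockdown alone, so both such fits gave the same 12 h differences from uninjured. They count as 2 of the 10 fits without 1 array given below. The count of calls depended on the setting. It ran from 6, with an offset of 16 or without the knockdown cultures, to 128, with an intensity trend and a robust prior in the fit, and no called gene changed sign in any of 25 alternative settings. Leaving out 1 array gave 25 calls without knockdown replicate 2 at 12 h, 26 without control replicate 1 at 12 h and 33 without uninjured knockdown replicate 2. In all, 17 of the 60 genes kept their call whichever of the 10 arrays was left out.

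Some genes of the ATF4 and CHOP stress programme rose. In the list for stress of amino acid supply and of the endoplasmic reticulum, 5 of 24 tested genes were called higher. They were Ddit3, Nupr1, Chac1, Ppp1r15a and Slc7a11, and none was called lower. Over all genes 0.332% were called higher. The median difference of the list was 0.20, against 0.0032 over all genes. Ddit3, the transcription factor CHOP that follows ATF4, had the smallest p of all genes. Ddit3 read 876 and 830.4 in control, 1398 and 1304 in knockdown and 3229 in overexpression cultures at 12 h, against 576 and 709, 573 and 557 and 2093 in the uninjured cultures of the same constructs. All 12 h arrays of Ddit3 lay above the uninjured arrays of their construct, and its average difference was 0.72 ± 0.0791 (SE; adjusted p = 0.000160). Nupr1 read 9.28 and 9.75 in control, 353 and 457 in knockdown and 113 in overexpression cultures at 12 h, against 4.66 and 9.79, 175 and 169 and 38.6 in the uninjured cultures of the same constructs. Nupr1, a small stress-induced chromatin protein, was thus not above 16, the intensity taken as the limit of detection, on any control array at either time, and no fold is given there. Its average was 0.60 ± 0.0841 (SE; adjusted p = 0.00190), and it came from knockdown (0.97) and overexpression (0.77) cultures. Chac1, an enzyme that breaks down glutathione, was bright throughout. Chac1 read 4347 and 4194 in control, 7309 and 7123 in knockdown and 4639.7 in overexpression cultures at 12 h, against 2587 and 3471, 4903 and 5050.2 and 3197 in the uninjured cultures of the same constructs. The rise of Chac1 was 0.50 in control, 0.53 in knockdown and 0.53 in overexpression cultures, the most even of those named here, and averaged 0.52 ± 0.0848 (SE; adjusted p = 0.00734).

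Ppp1r15a read 311 and 362 in control, 636 and 639 in knockdown and 1529.8 in overexpression cultures at 12 h, against 211 and 228, 365 and 374 and 1292 in the uninjured cultures of the same constructs. Ppp1r15a (GADD34), which brings a phosphatase to eIF2α and so ends the stress signal, rose by 0.47 ± 0.0735 (SE; adjusted p = 0.00446), with no overlap within any construct. Slc7a11 read 35.8 and 30.9 in control, 151 and 106 in knockdown and 41.7 in overexpression cultures at 12 h, against 8.72 and 20.6, 96.2 and 86.1 and -0.170 in the uninjured cultures of the same constructs. Slc7a11, the cystine and glutamate exchanger, averaged 0.44 ± 0.0867 (SE; adjusted p = 0.0247). In overexpression cultures its uninjured array was not above 16, so that it was at least 2.61-fold higher there at 12 h. Slc7a11 lost its call in 6 of the 10 fits without 1 array, with its smallest value, 0.30 (adjusted p = 0.143), when either overexpression array was left out. Without the knockdown cultures all 5 called members lost their calls. So did 54 of the 60 called genes in that fit, and 48 without the control cultures. The averages without knockdown were 0.50 for Ddit3, 0.41 for Nupr1, 0.51 for Chac1, 0.36 for Ppp1r15a and 0.50 for Slc7a11. Of the other 19 tested members, none was called. Trib3, a pseudokinase induced by CHOP, reached 0.34 (adjusted p = 0.0544), and Herpud1, of endoplasmic reticulum degradation, 0.31 (adjusted p = 0.0865). Phgdh, Atf5 and Shmt2 were 0.31 (adjusted p = 0.172), 0.27 (adjusted p = 0.175) and 0.26 (adjusted p = 0.181). Atf4 itself was 0.09 (adjusted p = 0.746), and Asns, the asparagine synthetase that ATF4 activates, -0.07 (adjusted p = 0.776). The chaperones of the same compartment had small or negative differences, with Hspa5 (BiP) at -0.10 (adjusted p = 0.709) and Hsp90b1 at -0.27 (adjusted p = 0.192). These uncalled members, and Slc7a11, were chosen for naming after their values were seen.

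**Figure D1:**
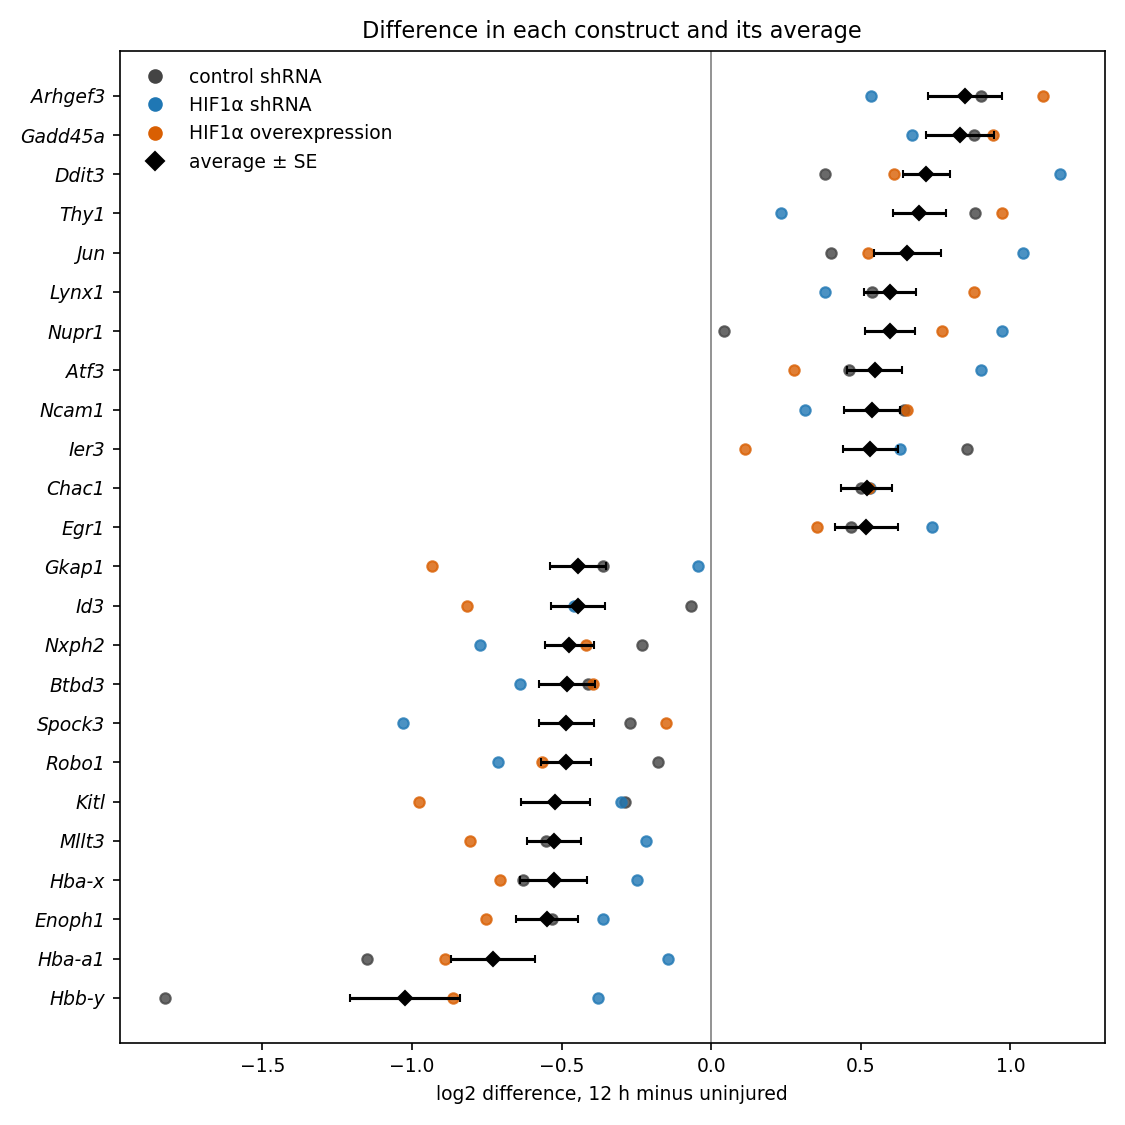
Log2 difference, 12 h minus uninjured, of the 12 genes that rose most and the 12 that fell most. Circles are the 3 constructs and diamonds their average with its SE. The genes were chosen to have every circle on the same side of 0. The spread between constructs differs from Chac1, where the 3 coincide, to Hbb-y, where they run from -1.83 to -0.38.

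Of 34 tested genes known to be induced in injured sensory neurons or tied to regeneration, 4 rose (Gadd45a, Jun, Atf3 and Tnfrsf12a) and none fell. Over all genes 0.332% rose and 0.206% fell. The list median was 0.03. Gadd45a, a stress protein of growth arrest and DNA repair, had the second largest rise of all genes. Gadd45a read 601 and 566 in control, 1013 and 1270.4 in knockdown and 459 in overexpression cultures at 12 h, against 237 and 344, 653 and 724 and 207 in the uninjured cultures of the same constructs. Every 12 h array of Gadd45a exceeded the uninjured arrays of its construct, and the average was 0.83 ± 0.113 (SE; adjusted p = 0.00145). A second, dimmer Gadd45a probe gave 0.46. Jun read 283 and 284 in control, 593 and 597 in knockdown and 531 in overexpression cultures at 12 h, against 269.9 and 143, 294 and 219 and 349 in the uninjured cultures of the same constructs. Jun, a subunit of the AP-1 factor that is needed for efficient axon regrowth, averaged 0.66 ± 0.112 (SE; adjusted p = 0.00826), and the uninjured control arrays were far apart. Its rise was 0.40 in control, 1.04 in knockdown and 0.52 in overexpression cultures. Atf3 read 25.6 and 34.6 in control, 72.3 and 83.6 in knockdown and 114 in overexpression cultures at 12 h, against 4.13 and 2.95, 2.67 and 19.8 and 82.1 in the uninjured cultures of the same constructs. Atf3, the usual marker of axotomised neurons, was a dim probe, with the uninjured control arrays not above 16. In control cultures it was at least 1.86-fold higher at 12 h, and the average difference was 0.55 ± 0.0928 (SE; adjusted p = 0.00826). Tnfrsf12a read 223 and 235 in control, 245 and 278 in knockdown and 255 in overexpression cultures at 12 h, against 108 and 132, 139 and 137 and 239 in the uninjured cultures of the same constructs. The receptor Tnfrsf12a (Fn14), which promotes neurite growth in culture, averaged 0.47 ± 0.0917 (SE; adjusted p = 0.0194). Tnfrsf12a rose by 0.67 and 0.68 in control and knockdown cultures and differed by 0.08 in overexpression cultures, and its adjusted p was 0.0522 without control replicate 1 at 12 h and 0.0844 without knockdown replicate 2 at 12 h.

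In all 4 genes the 12 h arrays lay above the uninjured arrays of each construct. Without the knockdown cultures Gadd45a kept its call, and Jun, Atf3 and Tnfrsf12a lost theirs, at 0.46, 0.37 and 0.37. The remaining 30 of the 34 did not pass. They include Sprr1a (-0.08 (adjusted p = 0.725)), Gal (-0.03 (adjusted p = 0.961)), Gap43 (-0.13 (adjusted p = 0.570)), Npy (-0.18 (adjusted p = 0.353)) and Smad1 (0.04 (adjusted p = 0.918)), genes that rise in adult ganglia after nerve injury and are named here after their values were seen. Klf6 and Socs3 had the most negative differences of the list, -0.28 (adjusted p = 0.102) and -0.27 (adjusted p = 0.127).

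Among 16 tested immediate early genes, which respond within minutes to a stimulus, Ier3 and Egr1 rose, against 0.332% of all genes. The list median was 0.05. Ier3 read 1830.0 and 1826 in control, 3051 and 3162 in knockdown and 13245 in overexpression cultures at 12 h, against 810.2 and 1187, 2145 and 1832 and 12246 in the uninjured cultures of the same constructs. Ier3, an early response protein that acts on cell survival, averaged 0.53 ± 0.0922 (SE; adjusted p = 0.00849) and rose by 0.85 in control cultures, 0.63 in knockdown and 0.11 in overexpression. Egr1 read 78.0 and 75.2 in control, 1295 and 1057 in knockdown and 648 in overexpression cultures at 12 h, against 22.7 and 53.6, 638 and 714 and 493 in the uninjured cultures of the same constructs. Egr1, a zinc-finger transcription factor, averaged 0.52 ± 0.106 (SE; adjusted p = 0.0279), with the control arrays much dimmer than the others at both times. Leaving out 1 array ended the call of Egr1 in 4 of 10 fits, without control replicate 1 or knockdown replicate 1 at either time, with adjusted p from 0.0551 to 0.0873. The 12 h arrays of both genes lay above the uninjured arrays of each construct. Both lost their calls without the knockdown cultures, where Ier3 averaged 0.48 and Egr1 0.41. The classic early genes Fos and Junb were -0.15 (adjusted p = 0.581) and 0.05 (adjusted p = 0.861) at 12 h, and Jund was 0.16 (adjusted p = 0.432). Fos was 0.01, 0.33 and -0.79 in control, knockdown and overexpression cultures, the last from 1 array against 1.

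Arhgef3, Thy1, Lynx1 and Ncam1, of the 12 largest rises, are members of none of the 24 gene lists. Arhgef3 read 308 and 418 in control, 2286 and 2375 in knockdown and 375 in overexpression cultures at 12 h, against 105 and 236, 1693 and 1487 and 138 in the uninjured cultures of the same constructs. Arhgef3, a guanine nucleotide exchange factor for small GTPases, had the largest rise, 0.85 ± 0.124 (SE; adjusted p = 0.00200), and differed between uninjured constructs by far more than it did with injury. Thy1 read 4255 and 4054 in control, 12739 and 13569 in knockdown and 283 in overexpression cultures at 12 h, against 2076 and 2386, 11480.1 and 10852 and 111 in the uninjured cultures of the same constructs. Thy1, a glycoprotein anchored in the membrane of neurons, averaged 0.70 ± 0.0874 (SE; adjusted p = 0.000655). Its rise was 0.88 in control and 0.97 in overexpression cultures, whose levels stand far apart, and 0.23 in knockdown cultures. Lynx1 read 729.6 and 773 in control, 2197 and 2234 in knockdown and 249 in overexpression cultures at 12 h, against 522 and 474, 1758 and 1622 and 105 in the uninjured cultures of the same constructs. Lynx1, a membrane-anchored brake on nicotinic acetylcholine receptors, averaged 0.60 ± 0.0856 (SE; adjusted p = 0.00193). A second, dim Lynx1 probe gave 0.03. Ncam1 read 605 and 519.9 in control, 593 and 635 in knockdown and 1884 in overexpression cultures at 12 h, against 356 and 315, 528 and 438 and 1173 in the uninjured cultures of the same constructs. Ncam1, the neural cell adhesion molecule, averaged 0.54 ± 0.0926 (SE; adjusted p = 0.00849), while its dimmer second probe gave 0.10. Rin1 read 39.2 and 27.7 in control, 111 and 100.1 in knockdown and 1044 in overexpression cultures at 12 h, against 18.9 and 6.73, 36.3 and 42.1 and 719.9 in the uninjured cultures of the same constructs. Rin1, a Ras effector that acts on Rab5, averaged 0.51 ± 0.0866 (SE; adjusted p = 0.00826). In all 5 genes the 12 h arrays lay above the uninjured arrays of each construct, and none lost its call when 1 array was left out. With the mean of all probes of a gene in place of the brightest, Lynx1 was 0.32 (adjusted p = 0.0720) and Ncam1 0.32 (adjusted p = 0.0752).

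**Figure D2:**
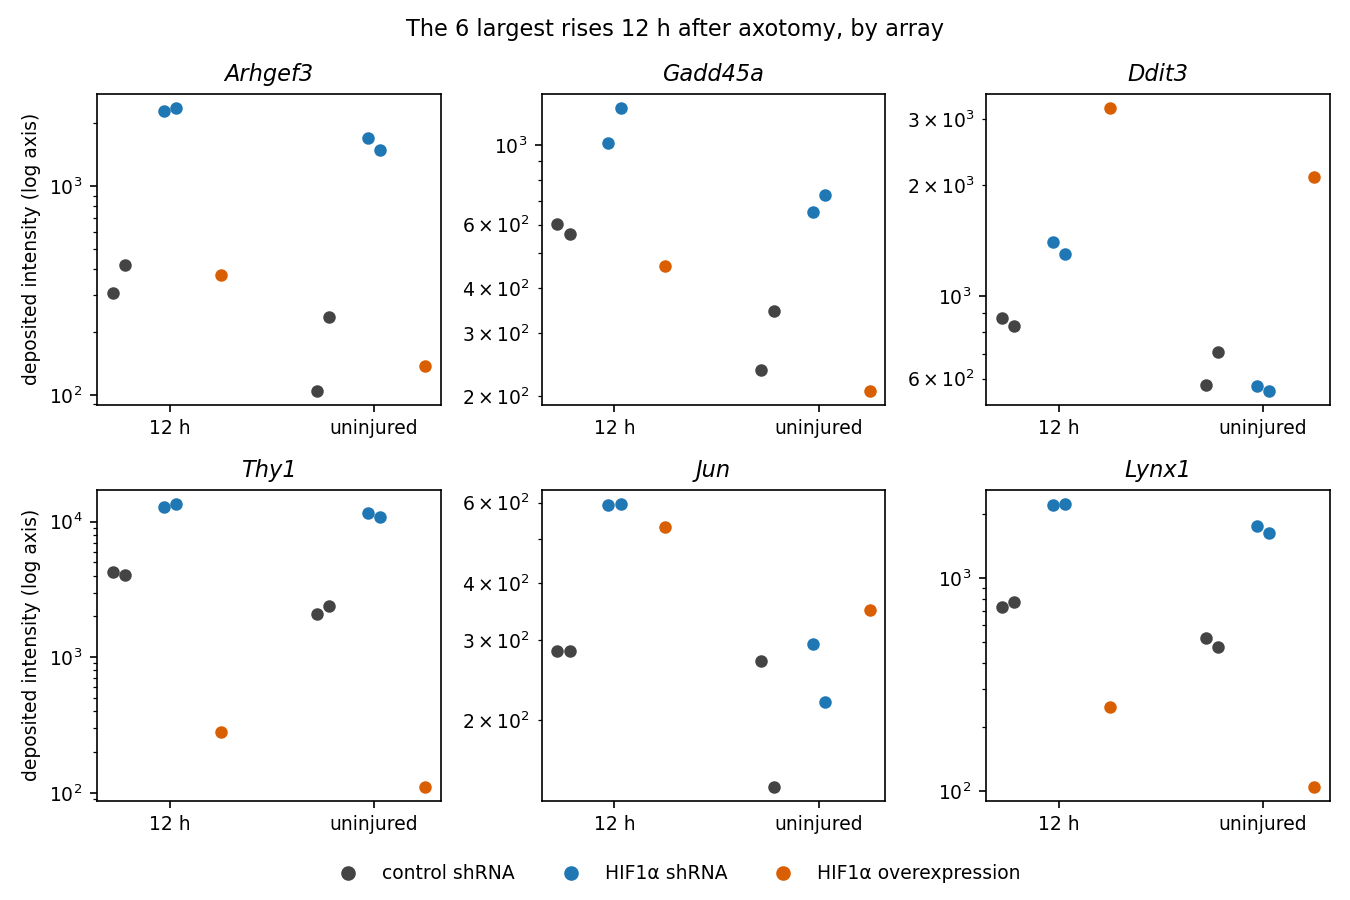
Deposited intensity of the 6 genes with the largest rise on each of the 10 arrays, on log axes, with the 12 h arrays left of the uninjured arrays and colour giving the construct. Within each colour the 12 h points lie above the uninjured points.

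Apart from these and the p53 targets, 19 genes rose, with differences of 0.33 to 0.48, and were named after their values were seen. Cebpb, a transcription factor that pairs with Ddit3, averaged 0.40 ± 0.0762 (SE; adjusted p = 0.0184) and had adjusted p = 0.0616 without control replicate 1 at 12 h. Atg9b, a membrane protein of autophagosome formation, averaged 0.45 ± 0.0752 (SE; adjusted p = 0.00826), was 0.39, 0.48 and 0.47 in control, knockdown and overexpression cultures, and kept its call without any 1 array. Slc6a9, a glycine transporter, averaged 0.47 ± 0.0829 (SE; adjusted p = 0.0101) and was 0.35 (adjusted p = 0.0625) without either overexpression array. Ptprn, a protein of dense-core vesicles, averaged 0.39 ± 0.0735 (SE; adjusted p = 0.0184), with adjusted p = 0.0669 without control replicate 1 and 0.0809 without knockdown replicate 2 at 12 h. Ddit4 (REDD1), a brake on the kinase mTORC1 and a HIF target, averaged 0.38 ± 0.0781 (SE; adjusted p = 0.0292). It was the only one called of 23 tested HIF targets outside glycolysis, against 0.538% of all genes. Ddit4 lost its call in 5 of the 10 fits without 1 array. Slc41a3, of a family of magnesium transporters, rested on overexpression cultures, with 0.26, 0.08 and 1.08 in control, knockdown and overexpression cultures, and averaged 0.17 (adjusted p = 0.454) without either overexpression array. Col18a1 (collagen XVIII), Stard5 (a lipid-binding protein), Trpv2 (a cation channel) and Slc44a1 (a choline transporter) were also lowest without the overexpression arrays, at 0.26, 0.27, 0.19 and 0.20 (adjusted p = 0.233, 0.219, 0.361 and 0.280), against 0.44, 0.44, 0.36 and 0.34 with all arrays. Col18a1 and Stard5 lost their calls in 6 of the 10 fits without 1 array, Trpv2 in 9 and Slc44a1 in all 10, where its lowest adjusted p was 0.0535. The rest were Tef, Htatip2, Cyb5r2, N4bp2l1, Rnf185, Arl14ep, Dgat2, Man2b1 and a gene with a locus name only, and each of these 9 lost its call in 4 to 9 of the 10 fits without 1 array, with adjusted p of up to 0.172.

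Of 16 tested p53 targets, 2 rose and none fell, against 0.332% and 0.206% of all genes, and the median was 0.18. Bbc3 read 587 and 521 in control, 1071 and 1074 in knockdown and 511 in overexpression cultures at 12 h, against 448 and 429, 865 and 808 and 353 in the uninjured cultures of the same constructs. Bbc3 (PUMA), which triggers apoptosis at the mitochondrion, averaged 0.36 ± 0.0746 (SE; adjusted p = 0.0279). Gdf15 read 11.1 and 18.2 in control, 508 and 618 in knockdown and 30.8 in overexpression cultures at 12 h, against 3.46 and -0.129, 328 and 338 and 16.05 in the uninjured cultures of the same constructs. Gdf15, a secreted stress cytokine, averaged 0.38 ± 0.0831 (SE; adjusted p = 0.0402), and 1 of its 4 control arrays was above 16. In both genes the 12 h arrays lay above the uninjured arrays of each construct. Each lost its call in 7 of the 10 fits without 1 array, with adjusted p up to 0.0983 for Bbc3 and 0.162 for Gdf15, and 2 dimmer Bbc3 probes gave 0.05 and 0.03. The mean of the Bbc3 probes was 0.15 (adjusted p = 0.439). Phlda3 (0.30 (adjusted p = 0.181)), Mdm2 (0.24 (adjusted p = 0.183)) and Cdkn1a (0.17 (adjusted p = 0.487)) were positive and did not pass.

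No gene that fell is a member of any of the 24 gene lists. Robo1 read 189 and 227 in control, 604 and 478 in knockdown and 114 in overexpression cultures at 12 h, against 231 and 257, 912 and 936 and 201 in the uninjured cultures of the same constructs. Robo1, the axonal receptor for Slit, averaged -0.49 ± 0.0848 (SE; adjusted p = 0.00849) and kept its call without any 1 array. Nxph2 read 55.4 and 48.5 in control, 49.4 and 38.5 in knockdown and 9.90 in overexpression cultures at 12 h, against 58.2 and 88.7, 118 and 126 and 35.7 in the uninjured cultures of the same constructs. Nxph2, a secreted ligand of neurexins, averaged -0.47 ± 0.0806 (SE; adjusted p = 0.00826) and likewise kept its call. In overexpression cultures Nxph2 was not above 16 at 12 h, a fall of at least 2.23-fold. Spock3 read 1651 and 2111 in control, 1129 and 1021 in knockdown and 792 in overexpression cultures at 12 h, against 2278 and 2262, 2058 and 2480.5 and 886 in the uninjured cultures of the same constructs. Spock3 (testican-3), a proteoglycan of the nervous system, averaged -0.48 ± 0.0932 (SE; adjusted p = 0.0187), with -1.03 in knockdown, -0.27 in control and -0.15 in overexpression cultures. Btbd3 read 310.1 and 282 in control, 981 and 697 in knockdown and 319 in overexpression cultures at 12 h, against 460.5 and 375, 1344 and 1309.9 and 440.4 in the uninjured cultures of the same constructs. Btbd3, which steers dendrites in the mouse cortex, averaged -0.48 ± 0.0929 (SE; adjusted p = 0.0187). The adjusted p of Btbd3 was 0.0732 without knockdown replicate 2 at 12 h, and that of Spock3 between 0.0606 and 0.0844 without control replicate 1 at 12 h or knockdown replicate 2 at either time. The 12 h arrays of these 4 genes lay below the uninjured arrays of each construct. Epha3, an ephrin receptor, averaged -0.41 ± 0.0892 (SE; adjusted p = 0.0355), and Spast (spastin), which severs microtubules, averaged -0.41 ± 0.0845 (SE; adjusted p = 0.0279). They lost their calls in 6 and 4 of the 10 fits without 1 array, with adjusted p up to 0.151 and 0.112.

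The inhibitors of basic helix-loop-helix factors Id1 and Id3, targets of BMP signalling, both fell. Id3 read 3.33 and 17.4 in control, 24.4 and 21.6 in knockdown and 11.4 in overexpression cultures at 12 h, against 16.7 and 10.6, 59.3 and 53.4 and 70.8 in the uninjured cultures of the same constructs. Id3 averaged -0.45 ± 0.0904 (SE; adjusted p = 0.0271) and was above 16 on only 1 of 2 control arrays at each time. In overexpression cultures Id3 fell at least 4.42-fold, and without either overexpression array its average was -0.26 (adjusted p = 0.241). Id1 read 0.585 and 9.33 in control, 604 and 528 in knockdown and 458 in overexpression cultures at 12 h, against 29.8 and 17.2, 719 and 673 and 669.5 in the uninjured cultures of the same constructs. Id1 averaged -0.36 ± 0.0822 (SE; adjusted p = 0.0481), with no control array above 16 at 12 h and a fall there of at least 1.41-fold. Within constructs the 12 h arrays of Id1 lay below the uninjured arrays throughout, and those of Id3 overlapped in control cultures. Id3 lost its call in 7 and Id1 in 8 of the 10 fits without 1 array, with adjusted p for Id1 of up to 0.172.

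Kitl read 1434 and 1084 in control, 913 and 808 in knockdown and 143 in overexpression cultures at 12 h, against 1604 and 1476, 1064 and 1082 and 345 in the uninjured cultures of the same constructs. Kitl, the ligand of the receptor Kit, averaged -0.52 ± 0.115 (SE; adjusted p = 0.0403). It lost its call in 9 of the 10 fits without 1 array, and was -0.29 (adjusted p = 0.311) without either overexpression array. Mllt3 read 137 and 119 in control, 227 and 175 in knockdown and 226 in overexpression cultures at 12 h, against 224 and 212, 251 and 236 and 445 in the uninjured cultures of the same constructs. Mllt3 (AF9), a reader of acetylated histones in transcription elongation complexes, averaged -0.53 ± 0.0915 (SE; adjusted p = 0.00849), and -0.38 (adjusted p = 0.0653) without either overexpression array. Enoph1 read 432 and 419 in control, 510.3 and 448 in knockdown and 298 in overexpression cultures at 12 h, against 514 and 805, 606 and 663 and 547 in the uninjured cultures of the same constructs. Enoph1, an enzyme of methionine salvage, averaged -0.55 ± 0.102 (SE; adjusted p = 0.0157). Its adjusted p was 0.0569 without either overexpression array and 0.0722 without knockdown replicate 2 at 12 h. Gkap1 read 663 and 596 in control, 939 and 763 in knockdown and 269.9 in overexpression cultures at 12 h, against 806 and 846, 726 and 1052 and 575 in the uninjured cultures of the same constructs. Gkap1, an anchor of cGMP-dependent protein kinase, averaged -0.45 ± 0.0944 (SE; adjusted p = 0.0330), with -0.04 in knockdown cultures, where the arrays overlapped. It lost its call in 7 of the 10 fits without 1 array, and was -0.20 (adjusted p = 0.423) without either overexpression array. In Kitl, Mllt3 and Enoph1 the 12 h arrays lay below the uninjured arrays of each construct. A second, dimmer Mllt3 probe gave -0.04. Other falls were Ica1l, Eif4a2 (an RNA helicase of translation initiation), Srsf3 (a splicing factor), Mkrn3, Efcab1, Chia1 (a chitinase) and Olfml2b, with differences of -0.35 to -0.42. Each of these 7 lost its call in 3 to 9 of the 10 fits without 1 array, with adjusted p of up to 0.180.

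The largest falls were in haemoglobin genes, which erythroid cells make. Hbb-y and Hba-a1 were above 16 on all 10 arrays, and Hba-x on all but 1. Hbb-y read 31.8 and 194 in control, 1088 and 1196 in knockdown and 921 in overexpression cultures at 12 h, against 419 and 598, 1269 and 1778 and 1731 in the uninjured cultures of the same constructs. Hbb-y, the embryonic epsilon-like beta globin, averaged -1.02 ± 0.183 (SE; adjusted p = 0.0101). It was the only called gene whose average passed 2-fold on the scale with 50 added, where dim genes appear to change less. With values floored at 16, Arhgef3 averaged 1.06 and Id3 -1.14, and neither was called in that fit. The difference of Hbb-y was -1.83 in control, -0.38 in knockdown and -0.86 in overexpression cultures. Control replicate 2 at 12 h, at 194, also lay below both uninjured control arrays, and control replicate 1 at 12 h, at 31.8, was the lowest array. Without that array the average was -0.79 (adjusted p = 0.00508), and Hbb-y kept its call without any 1 array. It lost its call with an intensity trend and robust prior (adjusted p = 0.170), values floored at 16 (0.211), log2 of the value plus 50 (0.0539) or an offset of 16 (0.145). Hba-a1 read 68.9 and 167 in control, 928 and 949 in knockdown and 537 in overexpression cultures at 12 h, against 267 and 402, 975 and 1120.0 and 1050.3 in the uninjured cultures of the same constructs. Hba-a1, adult alpha globin, averaged -0.73 ± 0.140 (SE; adjusted p = 0.0187). Its probe may also read the near-identical Hba-a2. Hba-x read 1.98 and 37.1 in control, 137 and 149.9 in knockdown and 124 in overexpression cultures at 12 h, against 48.8 and 81.0, 204 and 163 and 244 in the uninjured cultures of the same constructs. Hba-x, embryonic zeta globin, averaged -0.53 ± 0.111 (SE; adjusted p = 0.0321). Both were lowest on the same control array. Without it, Hba-a1 averaged -0.60 (adjusted p = 0.0522) and Hba-x -0.43 (adjusted p = 0.0983). Hba-a1 also lost its call without knockdown replicate 2 at 12 h (adjusted p = 0.0690) or uninjured knockdown replicate 2 (0.0592), and Hba-x in 7 fits in all. Both also lost their calls with the floor, the value plus 50 or an offset of 16 (adjusted p from 0.0631 to 0.159), and Hba-a1 with the trend and robust prior (0.0864). Of the other haemoglobin genes tested, Hbb-bh1 was -0.22 (adjusted p = 0.348), Hbb-b1 -0.02 (adjusted p = 0.953) and Hbq1b 0.03 (adjusted p = 0.942), the last 2 above 16 on a single 12 h and a single uninjured array.

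**Figure D3:**
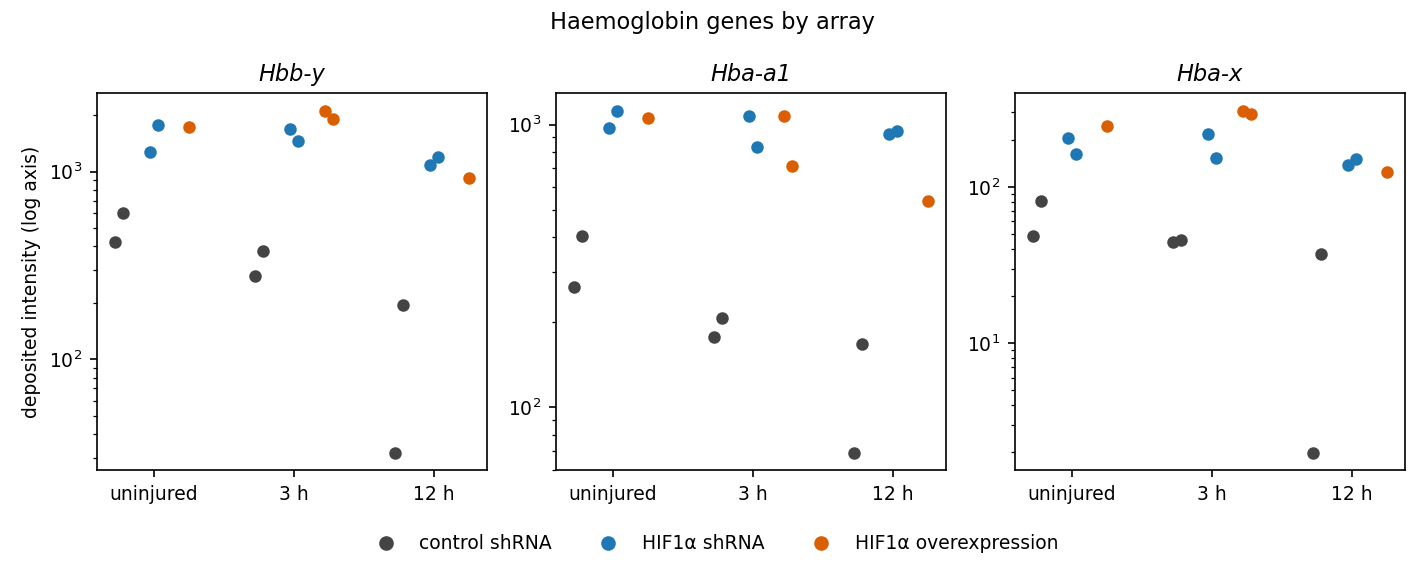
Deposited intensity of Hbb-y, Hba-a1 and Hba-x on all 16 arrays, uninjured, 3 h and 12 h, on log axes, with colour giving the construct. At 12 h every construct lies below its uninjured arrays for all 3 genes, and one control array at 12 h (31.8 for Hbb-y, 68.9 for Hba-a1 and 1.98 for Hba-x) lies far below the other.

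In the other gene lists no member was called. The largest differences among them were in Mt1 (metallothionein), of the oxidative stress list, at 0.67 (adjusted p = 0.0832), and in Cox6c, a subunit of cytochrome oxidase, at -0.45 (adjusted p = 0.160). Mt1 read 8045 and 9632 in control, 1997 and 2130.4 in knockdown and 40785 in overexpression cultures at 12 h, against 2141 and 5723, 1279.6 and 1192 and 40785 in the uninjured cultures of the same constructs. In overexpression cultures Mt1 stood at the highest value of the scale at both times, so no difference could be read there. In the heat shock list (11 tested) Bag3, a co-chaperone of selective autophagy, was 0.35 (adjusted p = 0.0544). The neuropeptide list (12 tested) had a median of 0.10 and 11 positive members, with Scg2 at 0.40 (adjusted p = 0.0865) and Cartpt at 0.31 (adjusted p = 0.0775). Cholesterol synthesis (19 tested) had a median of 0.11 and ribosome biogenesis (13 tested) one of -0.14. Oxidative phosphorylation (27 tested) had a median of -0.05, with 7 members lower and 1 higher at an unadjusted p under 0.05. Of all genes, 12.4% had an unadjusted p under 0.05 in either direction. The medians were 0.03 for 20 HIF targets of glycolysis, 0.0020 for 21 genes of sensory neuron identity, -0.06 for 18 of the axon cytoskeleton and -0.01 for 18 of synaptic vesicles. The potassium channel Kcna1 was -0.31 (adjusted p = 0.0980), the microtubule-binding protein Dcx -0.20 (adjusted p = 0.253) and the replication helicase subunit Mcm6 -0.39 (adjusted p = 0.0644).

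**Figure D4:**
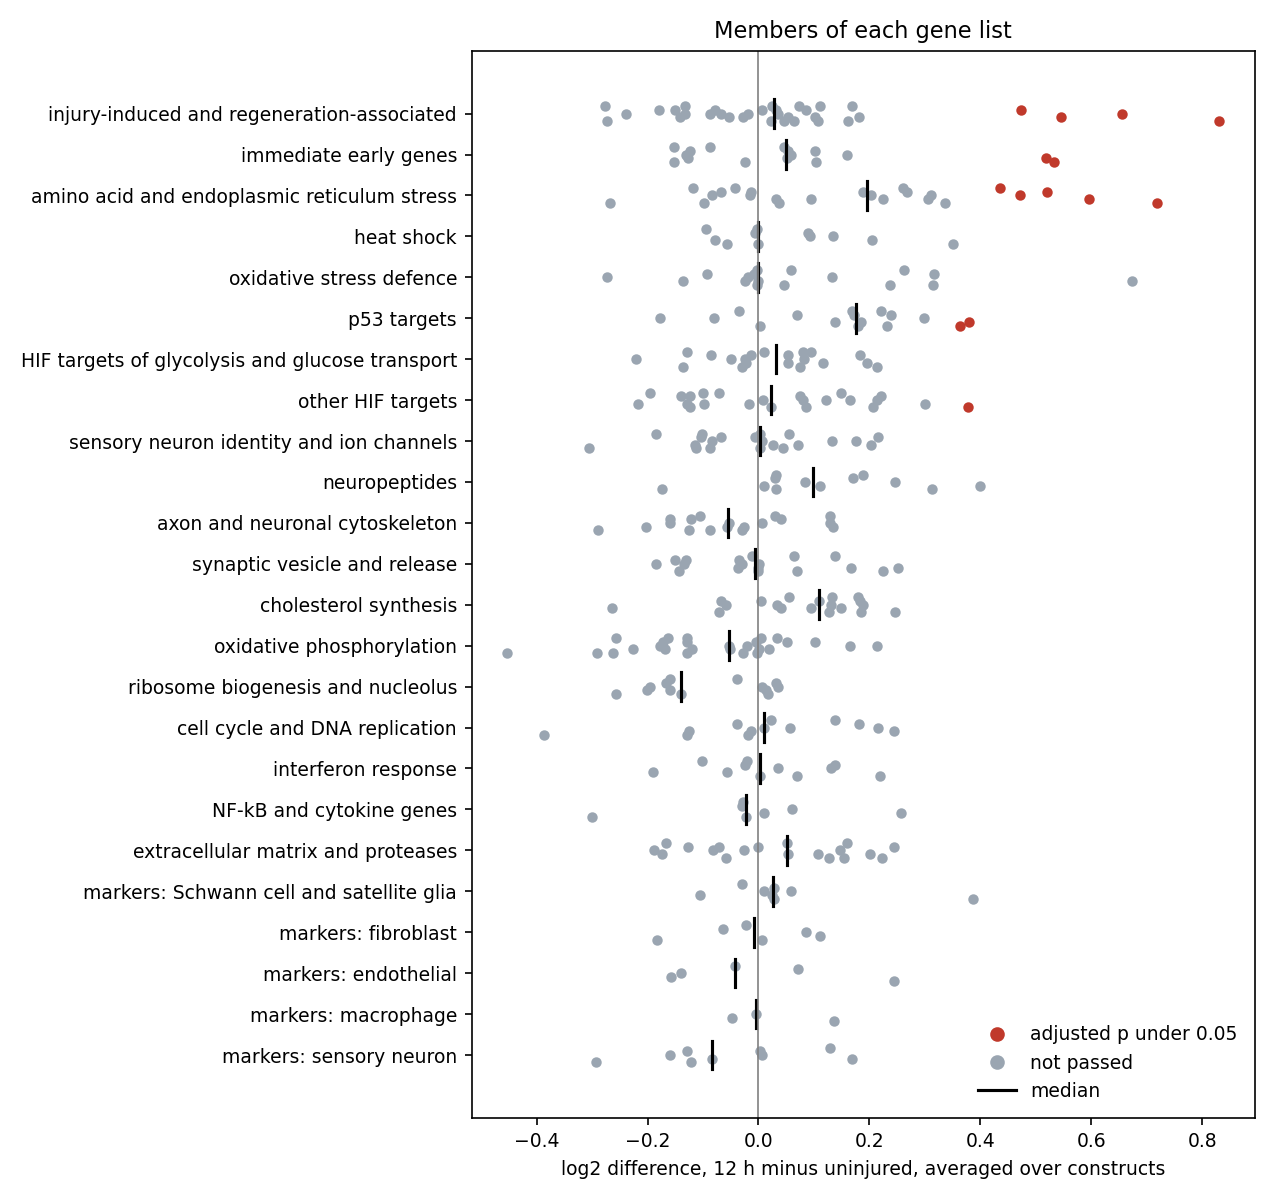
Log2 difference, 12 h minus uninjured, averaged over constructs, of each tested member of the 24 gene lists, with the list's median as a bar. Red points passed at an adjusted p under 0.05, and they belong to 5 of the lists and lie to the right of 0.

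Markers of the cell types a ganglion culture can hold were read beside these results. No member of a marker list was called. The summed intensity of the 9 tested sensory neuron markers, among them Isl1, Pou4f1 and Tubb3, was 34090.1 to 60951 at 12 h and 33777 to 62115 in uninjured cultures. The 8 tested Schwann cell and satellite glia markers summed to 1112 to 1955 at 12 h and 928 to 1614 uninjured, and among them Egr2 was above 16 on 1 array at 12 h and on no uninjured array. The 6 fibroblast markers summed to 3425 to 8670 at 12 h and 3634 to 8600 uninjured, mostly Vim. The 5 endothelial markers summed to 36.5 to 146 and 46.8 to 123, and the 3 macrophage markers to 97.2 to 249 and 118 to 196. Of these markers, Eng, Pecam1, Kdr, Csf1r and Lyz2 had mean intensities under 16 at both times. The ranges of sums pool the 3 constructs, so a change of cell content within a construct cannot be read from them. List medians in control, knockdown and overexpression cultures were 0.0004, -0.03 and -0.04 for sensory neuron and -0.01, 0.10 and 0.07 for glia markers. They were -0.02, 0.09 and -0.0045 for fibroblast, -0.01, 0.09 and -0.18 for endothelial and -0.12, 0.0033 and 0.12 for macrophage markers. The largest rise of a marker was Pmp22 (0.39) and the largest fall Elavl4 (-0.29). Hif1a itself, the gene aimed at by the hairpins, was a dim probe, at 21.3 to 42.7 on the control arrays, and not above 16 on any knockdown or overexpression array.

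The response was compared between constructs. No gene passed a test of whether the 12 h difference varied between the 3 constructs; limma's moderated F test gave a smallest adjusted p of 0.385, and 761 genes (6.82%) had an unadjusted p under 0.05. Of the 60 called genes 21 did, but the same arrays and estimate of spread made the calls, so the counts are not independent. Among the 21 genes were Nupr1 (0.04, 0.97 and 0.77 in control, knockdown and overexpression cultures) and Ddit3 (0.38, 1.17 and 0.61). Cartpt, a neuropeptide, had the smallest p, with -0.30 in control, 0.37 in knockdown and 0.87 in overexpression cultures. Cartpt read 42.2 and 44.0 in control, 645 and 585 in knockdown and 2226 in overexpression cultures at 12 h, against 74.6 and 62.2, 445 and 478 and 1186 in the uninjured cultures of the same constructs. Control and the other constructs thus went opposite ways for Cartpt. The other genes with the smallest p were Amigo2, an adhesion molecule (0.18, -0.65 and -0.03), Serpine2, an inhibitor of thrombin and other proteases (-0.52, 0.34 and -0.32), and Asah2, a ceramidase (0.46, -0.26 and 0.44). For Amigo2 and Asah2 the knockdown cultures fell below 0, and for Serpine2 they rose above it. Over all 11151 genes the 12 h differences of the constructs, which share no arrays, correlated at r = 0.239 between control and knockdown, 0.169 between control and overexpression and 0.0868 between knockdown and overexpression. These are correlations across genes, which are not independent replicates.

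The cultures collected 3 h after the cut allow the 12 h values to be set against an earlier time. With the same uninjured arrays, 4 genes were called at 3 h, Egr1 (0.68), Lynx1 (0.62) and Chac1 (0.51) higher and Id1 (-0.73) lower, which is 0.0359% of those tested, and 859 genes had an unadjusted p under 0.05. At 12 h these 4 stood at 0.52, 0.60, 0.52 and -0.36. A direct test of 12 h minus 3 h, averaged over constructs, called 27 genes (0.242%), 11 higher and 16 lower at 12 h. Of these, 12 were also called against uninjured. Jun was 0.15 at 3 h and 0.66 at 12 h, Ddit3 0.35 and 0.72, Cebpb 0.01 and 0.40, and Rin1 0.12 and 0.51. Each was thus higher at 12 h than at 3 h. The falls of Robo1 (-0.05 at 3 h, -0.49 at 12 h), Spock3 (-0.06 and -0.48), Btbd3 (-0.04 and -0.48), Enoph1 (0.04 and -0.55), Hba-x (0.00 and -0.53) and Hbb-y (-0.10 and -1.02) were near 0 at 3 h. So were those of Ica1l and Eif4a2. The test of 12 h minus 3 h depended on single arrays. It called 0 genes when control replicate 1, knockdown replicate 2 or the overexpression array at 12 h was left out, and also without control replicate 2 or knockdown replicate 2 at 3 h.

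The other large rises had differences of 0.26 or more at 3 h. Arhgef3 was 0.55 at 3 h and 0.85 at 12 h, Gadd45a 0.37 and 0.83, Thy1 0.36 and 0.70, Nupr1 0.38 and 0.60, Atf3 0.29 and 0.55, Ncam1 0.42 and 0.54, and Ier3 0.26 and 0.53. Their 12 h and 3 h differences share the uninjured arrays, and none of these 7 genes passed the test of 12 h minus 3 h.

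**Figure D5:**
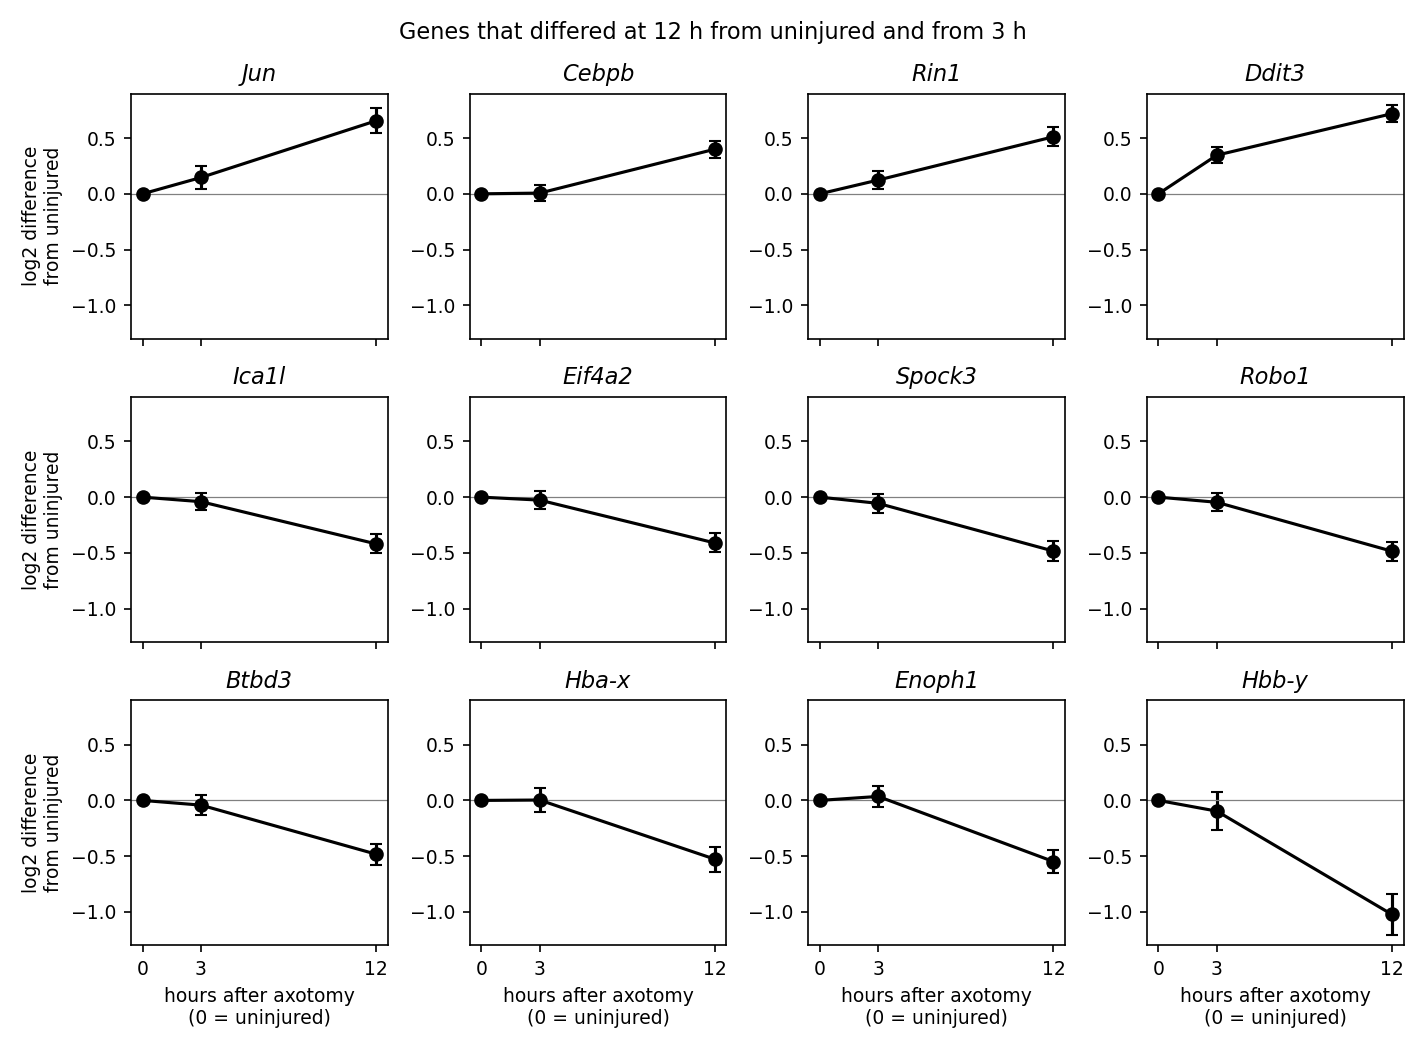
Log2 difference from uninjured, averaged over constructs, at 3 h and 12 h after axotomy, with its SE, for the 12 genes called both against uninjured at 12 h and in 12 h minus 3 h. The uninjured point is 0 by construction. Ddit3 is at 0.35 at 3 h and 0.72 at 12 h, while the 8 genes that fell lie between -0.10 and 0.04 at 3 h.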

How the data were processed

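RNA was linearly amplified, labelled with biotin and hybridised to Illumina BeadChips, per the labels' protocols. The deposited table holds intensity values for 25697 probes. Per the submitters' processing notes GenomeStudio was used, with no version or settings in the sources at hand. The deposited intensities run from -21.7 to 40784.5, with 27.2% below 0 and array medians of 13.3 to 13.5, which has the form of values that were background-subtracted and quantile-normalized. A deposited file of values before normalization has 32 columns of signal and detection p with names found in no sample's labels. They were not used, and only its gene symbols were, updated with RefSeq GRCm38.p6 (20733 current, 3872 updated, 1092 kept).

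Intensities were passed through normexp (offset 50), quantile-normalized and log2-transformed (limma 3.58.1, R 4.3.3). Normexp thus ran on values that already looked corrected. A probe was kept if its intensity was above 16 on at least 2 of 16 arrays (background SD 6.42, from values below 0), which left 15086 probes, and the brightest stood for each of 11151 genes. On each array 47.8% to 47.9% of probes exceeded 16. The number of arrays limits the precision. No pair of arrays was identical. Arrays of 1 group correlated at 0.994 to 0.996, and pairs from different groups at 0.918 to 0.996. The labels name no batch.

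One limma fit over all 16 arrays gave a mean to each of 9 groups (7 residual and 13.2 prior degrees of freedom), so that single arrays borrow the spread of the others. P-values were adjusted over all genes by Benjamini-Hochberg, with calls at under 0.05. The pipeline was tested on simulated data. Bounds ("at least") put 16 in place of a group not above 16 on any array. Named genes are the 12 largest rises and falls called with 1 sign in all constructs, up to 4 members of each list by p, the 6 smallest interaction p and the 4 largest rises and falls also called in 12 h minus 3 h. Some genes are not reported here. Other genes named were chosen after their values were seen. The comparison, its gene lists and its tests were chosen with earlier results of these data known.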

Additional observations from a re-analysis of the deposited data

Results flagged for a closer look

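For 12 genes called against uninjured at 12 h, limma's direct test of 12 h minus 3 h, averaged over constructs, also passed at an adjusted p under 0.05, so their difference from uninjured changed between the times. On the log2 scale the values of 12 h minus 3 h were 0.51 for Jun, 0.39 for Cebpb, 0.39 for Rin1 and 0.37 for Ddit3, all higher at 12 h. Lower at 12 h were Ica1l (-0.38), Eif4a2 (-0.38), Spock3 (-0.43), Robo1 (-0.44), Btbd3 (-0.44), Hba-x (-0.53), Enoph1 (-0.58) and Hbb-y (-0.93). Adjusted p lay between 0.0395 and 0.0465 for these genes. None was called in this test when control replicate 1, knockdown replicate 2 or the overexpression array at 12 h was left out, or with values floored at 16.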

How the results depend on the processing

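The 12 h comparison called 60 genes (37 higher, 23 lower). The count was 104 with an additive time effect, 96 without the overexpression cultures, 128 with an intensity trend and robust prior (64 and 64), 32 with values floored at 16 (23 and 9), 26 with log2 of the value plus 50 (20 and 6) and 6 with an offset of 16 (5 and 1). It was 13 without the control cultures and 6 without the knockdown cultures, alternatives chosen after seeing the data. Of the 60, 50 were among the 104, 39 among the 96, 58 among the 128, 15 among the 32, 26 among the 26, 6 among the 6 with an offset of 16, 12 among the 13 and 6 among the 6 without the knockdown cultures. The count stayed between 51 and 76 with only the 10 arrays, cyclic loess, no filter, a filter of 8 arrays, mean probes or array weights. With mean probes 15 of the 60 lost their call, among them Mllt3 (-0.28), Epha3 (-0.26), Spast (-0.25) and Chia1 (-0.19). Leaving out 1 of the 10 arrays gave 25 to 88 calls. The test of 12 h minus 3 h called 27 genes, 8 with the floor, of which 0 are among the 27, 0 with the value plus 50 (1256 at an unadjusted p under 0.05) and 0 with an offset of 16 (1219), 7 with cyclic loess, 5 with mean probes, 61 with trend and robust prior, and 0 to 36 without 1 of the 16 arrays. The test between constructs called 0 genes, 13 with the floor, and 0 to 1 without 1 array. Replicate numbers are shared by the groups, but the deviations of same-numbered arrays correlated at -0.048 to 0.154 over the 6 pairs of 12 h and uninjured groups, and at -0.120 to 0.244 over all 21 pairs of groups, 7 of them over 0.1, so the numbers were not taken as pairs. With the replicate block 95 genes were called at 12 h, all 60 among them, 26 in 12 h minus 3 h, of which 23 were shared, and 0 between constructs (829 at an unadjusted p under 0.05). No called gene reversed, and 0 of the 60 were called under all 25 settings. The causes of these changes were not tested. Probes at the limit of detection, such as those of Atf3, Nupr1, Id3 and Gdf15 in control cultures, give bounds or no fold.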

Other observations

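Several genes were called in 12 h minus 3 h and not against uninjured, and are named here after their values were seen. Fos, the partner of Jun in AP-1, was 0.37 at 3 h and -0.15 at 12 h, a difference of -0.52 between the times. Its 12 h difference was 0.01 in control, 0.33 in knockdown and -0.79 in overexpression cultures, so the negative average came from 1 array against 1. Kifbp, a kinesin-binding protein, was 0.14 at 3 h and -0.47 at 12 h, and Slc25a16, a mitochondrial carrier, 0.04 and -0.44. Hpgd, which degrades prostaglandins, was 0.30 at 3 h and -0.17 at 12 h, and Tet2, an enzyme of DNA demethylation, 0.14 and -0.24. In control, knockdown and overexpression cultures at 12 h Hpgd was -0.20, -0.39 and 0.09, and Tet2 0.001, -0.15 and -0.56. Srxn1, sulfiredoxin, was -0.05 at 3 h and 0.31 at 12 h, and Hfe, a regulator of iron uptake, -0.07 and 0.30. At 12 h Hfe was -0.01 in control, 0.28 in knockdown and 0.62 in overexpression cultures.

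Trib3 (adjusted p = 0.0544), Bag3 (0.0544), Kifbp (0.0537) and Slc25a16 (0.0621) lay just past the threshold against uninjured at 12 h, while Srsf3 (adjusted p = 0.0492), Trpv2 (0.0481) and Man2b1 (0.0481) lay just inside it.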
